A study of Mus musculus with 4 samples.

Results

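The globin clusters of the mouse are the alpha cluster on chromosome 11 and the beta cluster on chromosome 7, and Smad1 occupancy at both was read from 5 deposited lists of ChIP–seq peaks. The members were 7 globin genes, Hba-x, Hba-a1 and Hba-a2 in the alpha cluster and Hbb-y, Hbb-bh1, Hbb-bs and Hbb-bt in the beta cluster, out of 21938 protein-coding genes of GENCODE M21 on mm10. Every peak from 50 kb before to 50 kb past each cluster was taken, and 4 of the 76539 intervals in the 5 lists lay there. These 4 intervals marked 2 places, both in the alpha window, and no interval of any list lay in the beta window.

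Chromatin came from mouse GFP-Bry ES cells, which carry GFP in the Brachyury locus and whose strain is given as C57BL/6. They were grown as embryoid bodies (EBs), dissociated on day 3 of culture and left to reaggregate for 24 h, until day 4, with either DMSO, the vehicle, or 10 µM IWR-1, an inhibitor of Wnt signalling. For each of these 2 treatments the Smad1 ChIP and its input were sequenced as 1 library apiece, so differences between treatments have no replicate check and no p-value is given. EBs are mixtures of cells, so fewer cells with an occupied site and less occupancy per cell cannot be told apart, and no RNA was analysed here.

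Smad1 is a transcription factor that is phosphorylated downstream of BMP receptors and then enters the nucleus with Smad4. Red blood cells make haemoglobin from a pair of alpha-type and a pair of beta-type chains. The embryonic genes Hba-x (zeta), Hbb-y (epsilon y) and Hbb-bh1 (beta h1) serve the primitive erythroid cells of the yolk sac. Hba-a1, Hba-a2, Hbb-bs and Hbb-bt are called the adult genes. Transcription of the alpha genes depends on upstream enhancers, most of them inside introns of the neighbouring gene Nprl3, and that of the beta genes on the locus control region (LCR) upstream of Hbb-y. In erythroid cells these elements are bound by GATA1, which recognises GATA elements, by NF-E2, which recognises the AP-1-like sequence TGACTCA, and by Klf1.

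The stretch that carried the only DMSO site found by both peak callers, the alpha enhancer Rm, is shown first, followed by R2, another enhancer of the cluster, for which no list had a call, by the place that 1 caller listed between the adult alpha genes, and by hypersensitive site 5'HS2 of the beta LCR, which also had no call. Each line holds 300 bases of GRCm38, plus strand, at chr11:32265233-32265532, chr11:32250958-32251257, chr11:32289038-32289337 and chr7:103861053-103861352 in that order. Capitals mark GATA elements (AGATAA and the wider forms AGATAG and TGATAA and TGATAG), the AP-1-like sequence and Smad elements (GGCGCC or GGAGCC or CAGACA or GTCTAGAC) on either strand.
Rm: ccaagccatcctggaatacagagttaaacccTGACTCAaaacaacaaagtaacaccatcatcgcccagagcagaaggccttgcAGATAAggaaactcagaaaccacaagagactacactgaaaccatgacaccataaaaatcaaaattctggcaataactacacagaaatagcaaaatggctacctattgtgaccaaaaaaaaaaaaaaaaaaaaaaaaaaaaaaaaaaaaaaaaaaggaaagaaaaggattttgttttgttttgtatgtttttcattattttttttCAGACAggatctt
R2: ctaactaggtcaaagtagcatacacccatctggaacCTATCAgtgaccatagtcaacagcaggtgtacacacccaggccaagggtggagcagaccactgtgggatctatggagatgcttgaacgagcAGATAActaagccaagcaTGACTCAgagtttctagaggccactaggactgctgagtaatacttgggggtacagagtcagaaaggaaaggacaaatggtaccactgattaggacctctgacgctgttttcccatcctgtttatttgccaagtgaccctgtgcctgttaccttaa
Between Hbq1b and Hba-a2: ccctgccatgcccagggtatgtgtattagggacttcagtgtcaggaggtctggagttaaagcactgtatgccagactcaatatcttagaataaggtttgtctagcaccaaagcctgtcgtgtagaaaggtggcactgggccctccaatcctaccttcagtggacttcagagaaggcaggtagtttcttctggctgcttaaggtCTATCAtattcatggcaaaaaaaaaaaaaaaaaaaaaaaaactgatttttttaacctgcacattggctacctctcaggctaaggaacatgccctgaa
5'HS2: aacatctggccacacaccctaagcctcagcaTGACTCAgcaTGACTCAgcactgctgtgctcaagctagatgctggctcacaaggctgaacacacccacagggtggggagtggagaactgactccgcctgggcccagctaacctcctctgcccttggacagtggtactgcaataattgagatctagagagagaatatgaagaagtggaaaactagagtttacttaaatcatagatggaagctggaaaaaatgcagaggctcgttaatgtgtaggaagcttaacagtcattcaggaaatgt
The Rm stretch held a GATA element, TGACTCA, a Smad element and a run of 42 adenines. The R2 stretch held GATA elements and TGACTCA without such a run, and 5'HS2 held TGACTCA at 2 places.

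Because several lists are filed under the label of another library, they were identified before they were read at the globin genes. The list of 10466 common DMSO sites was made from intervals of 1 QESEQ list, which held all 10466, and all 10466 overlapped 1 MACS list, so those lists are called DMSO here although their labels name input libraries. The other QESEQ list is filed under the IWR-1 ChIP and is called IWR-1. The remaining MACS list, called the second MACS list, is filed under the DMSO ChIP, while its own deposited name gives IWR-1. It overlapped 2701 of the common sites. Because label and name disagree, it is taken as IWR-1 by that name and by elimination. The lists held 15927 (DMSO MACS), 26070 (DMSO QESEQ), 16261 (IWR-1 QESEQ) and 7815 (second MACS) peaks. They hold positions and, for MACS, a score, but not the number of reads, which leaves the depth of each peak unknown, and a place without a peak is one that passed no caller's threshold.

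The alpha cluster spans 20.9 kb from the start of Hba-x to the end of Hba-a2 (chromosome 11, 32276400 to 32297298, mm10), and its window spans 120.9 kb. It held 1 common DMSO site. The site covered 599 bp (32265048 to 32265646), was matched by a DMSO MACS peak of 509 bp (32265189 to 32265697), and lay inside intron 1 of Nprl3 (main coding transcript, 13 exons), with no exon overlapped. Nprl3, the ubiquitously expressed gene for a subunit of a regulator of mTORC1, runs on the minus strand from 32267707 to 32225628, and the centre of the site lay 2.36 kb inside it from its start. Counted from the globin genes, the centre lay 11.1 kb upstream of the start of Hba-x, 18.2 kb upstream of Hba-a1 and 31.1 kb upstream of Hba-a2.

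The site covered the whole of Rm, a 323 bp enhancer fragment curated by RefSeq (32265221 to 32265543). Of the common site, 53.9% was Rm sequence, and of the MACS peak 63.5%. The centre of the common site was 35 bp from the centre of Rm on the side away from the globin genes, and the centre of the MACS peak 61 bp on the side towards them. Rm alone among the 5 curated alpha enhancers had a call, made by both callers on the 1 DMSO ChIP library. It therefore stood in all 3 DMSO lists, since the common list follows from the other 2. Over the genome, 1.95% of 871 RefSeq enhancer regions overlapped a common DMSO site, 2.64% a DMSO MACS peak, 5.40% a DMSO QESEQ peak, 2.53% an IWR-1 QESEQ peak and 1.03% a peak of the second MACS list. Of the 236 fragments no longer than 600 bp, 1.27% overlapped a common site. The shares describe curated regions of many tissues and widths, with a median width of 1973 bp after merging, and are no test of Rm.

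**Figure D1:**
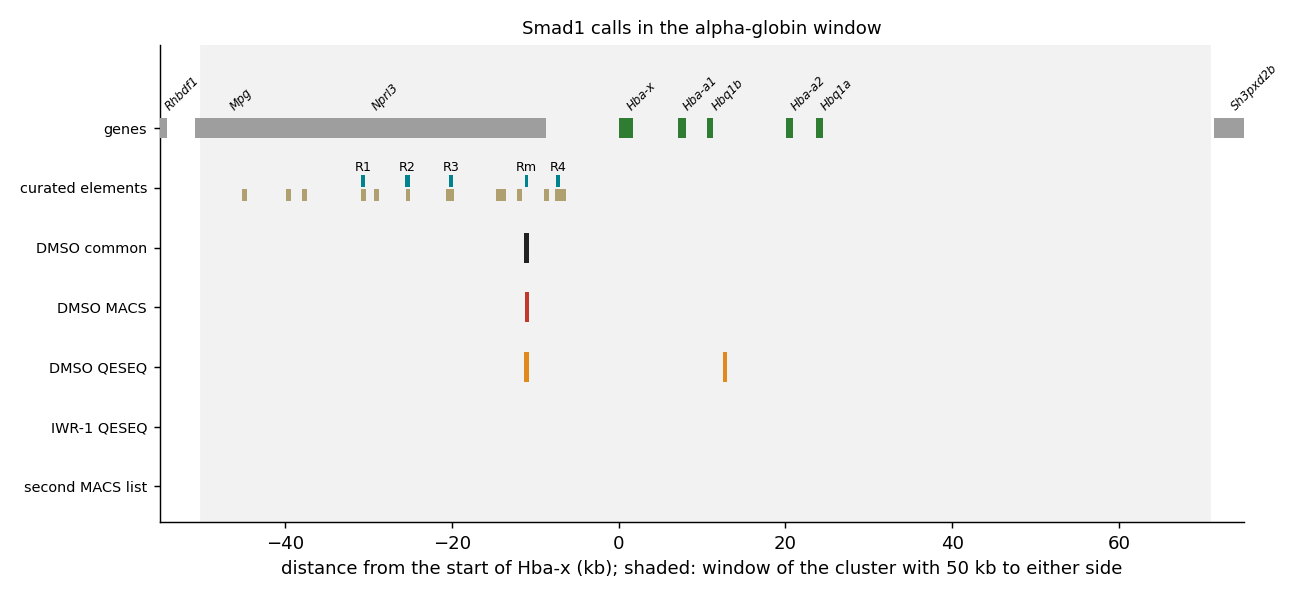
Positions in the alpha-globin window as distance from the start of Hba-x in kb, with globin genes in green, other coding genes in grey (Mpg lies over the end of Nprl3), curated enhancers (R1 to R4 and Rm) in blue-green, curated hypersensitive sites in tan, and the calls of each list below. All 3 DMSO lists have a call at Rm, DMSO QESEQ alone has a second call between Hbq1b and Hba-a2, and the IWR-1 QESEQ list and the second MACS list are empty over the window.

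The other curated enhancers of the cluster had no call in any list. R1 (32245544 to 32246028) lay 19.02 kb from the common site, R2 (32250851 to 32251364) 13.7 kb, R3 (32256073 to 32256597) 8.45 kb and R4 (32268946 to 32269328) 3.30 kb. R1 to R4, of which R2 is known as the strongest enhancer of the cluster, lie in sequence conserved between mouse and human, and Rm does not. None of the 12 curated DNase I hypersensitive sites of the alpha cluster was overlapped either, and the nearest, HS-12, ended 0.256 kb from the common site. The 2 sets are not separate, since R1, R3 and R4 lie inside the hypersensitive sites HS-31, HS-21 and HS-8, and R2 overlaps HS-26. The hypersensitive site at the Nprl3 promoter (HS-10) lay 1.77 kb away and had no call.

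In score, the Rm site was among the weaker of its list. Its MACS score, which ranks peaks within a list, was 54.19, where the lowest score in the list was 50.0 and the median over common sites was 66.57. Of the 10466 common sites, 1496 had a lower score, which placed Rm at percentile 14.3, and over all DMSO MACS peaks it stood at percentile 16.6. Its width was at percentile 85.9 of the common sites.

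**Figure D2:**
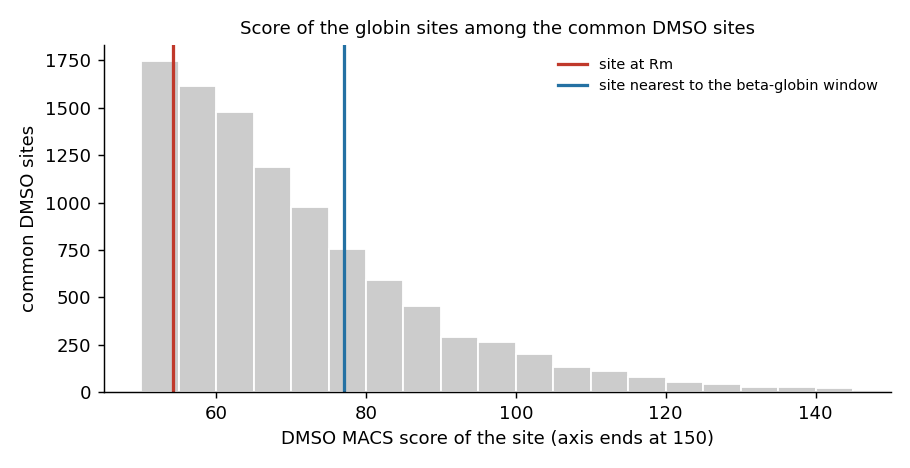
Number of common DMSO sites (y axis) by DMSO MACS score in bins of 5 (x axis, ending at 150), with lines at the site over Rm, at 54.19, and at the common site nearest to the beta-globin window, at 77.02. The line of Rm falls in the lowest bin, which holds 1746 sites.

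Within the Rm site the GATA element lay 28.5 bp from the centre of the common interval, TGACTCA lay 80.0 bp from it and a TCF/LEF element (CTTTGTT, on the minus strand) 69.0 bp from it. AGATAA was found on either strand in the central 200 bp of 9.96% of common sites and in 12.2% of windows of the same length 2 kb to either side. TGACTCA was in 2.91% and 3.41% of them, and CTTTGAT or CTTTGTT in 8.86% and 9.48%. Each of these elements was thus less frequent at the centres of common sites than beside them. The Smad elements of the site, GGCGCC at 164.5 bp and CAGACA at 175.5 bp from the centre, lay outside the central 200 bp. A Smad element was in the central 200 bp of 22.1% of common sites and of 25.6% of the flanking windows, and anywhere in 44.2% of the sites. The Klf1 sequence CCACACCC was not found in the site.

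The run of 42 adenines lay 5.5 bp from the centre of the DMSO MACS peak, centre to centre, and 101.5 bp from that of the common interval. For the longest run of each peak, the median distance was 50.0 bp in DMSO MACS and 58.0 bp in the common sites. In 6.79% of DMSO MACS peaks it was within 6 bp. The GATA element lay 124.5 bp from the MACS centre, and the central 200 bp of the MACS peak held no AGATAA and 1 Smad element, CAGACA. Runs of A or T were common in this list. At least 7 in a row stood in the central 200 bp of 76.1% of common sites and of 15.1% of the flanking windows, the longest run of a common site had a median of 25 bases, and 5.12% of common sites had a run of at least 42. Among the 5 alpha enhancers Rm was the only one with a run of 7 or more, the longest in the others having 4 or 5 bases. Such runs also stood in 2 of 12 alpha hypersensitive sites, of up to 7 bases, and in 4 of 12 beta ones, of up to 14, none with a call. What part the run at Rm had in the call was not tested.

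**Figure D3:**
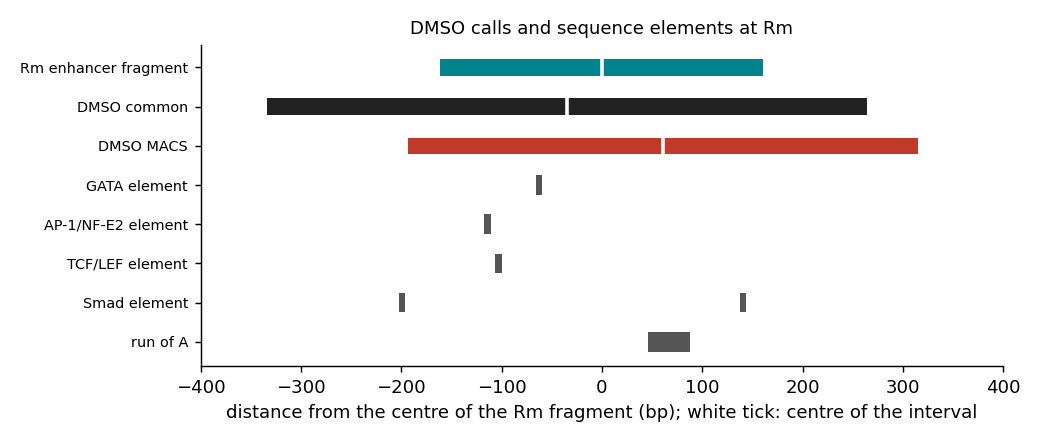
The Rm enhancer fragment, the common DMSO site and the DMSO MACS peak (bars, with a white tick at each centre) and the sequence elements below them, by distance in bp from the centre of Rm. The GATA, AP-1/NF-E2 and TCF/LEF elements lie to the left of the Rm centre, and the run of 42 adenines lies under the centre of the MACS peak.

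The second DMSO call of the alpha window was in the QESEQ list alone. It covered 447 bp (32288964 to 32289410), at percentile 47.6 of widths in that list, in intergenic sequence 1180 bp past the end of Hbq1b, a theta-globin gene, and it has no score because QESEQ gives none. It lay 5.45 kb downstream of the start of Hba-a1 and 7.08 kb upstream of the start of Hba-a2, so it was the call nearest to either adult gene. It held no AGATAA, a single GATA element of the wider set, no Smad element and no TGACTCA. Its longest run was 25 adenines, a length reached or passed in 39.6% of DMSO QESEQ peaks. AGATAA was in the central 200 bp of 10.1% of DMSO QESEQ peaks, any GATA element of the wider set in 28.4% and a Smad element in 23.5%.

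At the density of its list over the genome, a window of this length would hold 0.464 common sites, 0.707 DMSO MACS peaks and 1.16 DMSO QESEQ peaks, against the 1, 1 and 2 found. Of 22533 genome tiles of the same length, 66.5% held no common site and 43.5% no DMSO QESEQ peak. Most windows of this length thus had no common site, and fewer than that had no DMSO QESEQ peak.

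After IWR-1, neither call was listed. No IWR-1 QESEQ peak and no peak of the second MACS list lay in the window, and the IWR-1 QESEQ peak nearest to the Rm site was 139.9 kb away (32124615 to 32125193) in the direction away from the globin genes. At the densities of the 2 lists 0.721 and 0.347 peaks would be found in the window, and 57.7% and 72.6% of genome tiles of its length held none. For the second call the nearest was 163.8 kb away. Both DMSO QESEQ calls in the globin windows, 2 of 2, thus had no IWR-1 QESEQ peak at an overlap of 1 bp, with an exact binomial interval of 15.8% to 100% that covers counting error over sites only. Over the whole DMSO QESEQ list 74.2% of peaks had no IWR-1 QESEQ peak and 69.7% none in either IWR-1 list, of DMSO MACS peaks 71.5% had none in the second MACS list, and over the common sites 63.0% had none and 55.6% had none in either list. Among common sites with a score under 55, a limit chosen after the score of Rm was seen, 68.5% had none in either list. Among the 536 common sites with a run at least as long as that at Rm, chosen likewise, 27.8% had none. Most DMSO QESEQ peaks thus had no IWR-1 call, as these 2 had none, while most common sites with a run as long as that at Rm had one. With 1 library per treatment the treatment and the library cannot be told apart.

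Outside the alpha window the next common site on the Nprl3 side began 101.3 kb past the window's edge (32124689 to 32125107), and this place was called in all 5 lists. On the other side the nearest common site lay in Fbxw11, 349.3 kb past the edge. DMSO MACS and QESEQ each had a peak in Sh3pxd2b (MACS 32408983 to 32409792, score 84.37), 61.7 and 61.5 kb past the edge.

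The beta cluster spans 40.7 kb on the minus strand of chromosome 7 (103812524 to 103853216), and its window spans 140.7 kb. No list had a peak in it. At the densities of the lists, 0.540 common sites, 0.822 DMSO MACS peaks, 1.35 DMSO QESEQ peaks, 0.839 IWR-1 QESEQ peaks and 0.403 peaks of the second MACS list would be found in such a window. Of 19361 genome tiles of this length, 62.8% held no common site and 39.6% no DMSO QESEQ peak, so an empty window was frequent.

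The LCR, the group of hypersensitive sites 5'HS1 to 5'HS6 that enhances transcription of all beta-type genes, covers 19.7 kb (103857890 to 103877545) and had no call in any of the 5 lists. The same held for the whole 26.2 kb between the start of Hbb-y and Olfr66, the next gene upstream, and for each of the 12 curated hypersensitive sites, which include 3'HS1 beyond Hbb-bt and HS-E1 between Hbb-bh1 and Hbb-y. The gap from these sites to the nearest common site ranged from 41.9 kb (3'HS1) to 126.1 kb (5'HS6). In their middle 300 bp, 6 of 12 held AGATAA, 4 of 12 TGACTCA and 7 of 12 a Smad element. Of the 10466 common DMSO sites, the middle 300 bp of 1534 held AGATAA, of 461 TGACTCA and of 3349 a Smad element. Among promoters of 300 bp the shares were 11.2%, 5.20% and 51.7%. The 12 alpha hypersensitive sites held the same elements in 5, 3 and 4 cases and the 5 alpha enhancers in 5, 2 and 2, with R1 to R4 overlapping sites of the first group. Among all these only Rm was overlapped by a call.

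The nearest common DMSO site to the beta cluster lay 61.5 kb past the end of Hbb-bt and 11.5 kb outside the window (103750625 to 103750988), in an olfactory receptor array 2492 bp from Olfr630. Its MACS score was 77.02, at percentile 70.1 of common sites. It held a GATA element of the wider set but not AGATAA itself, no Smad element and a run of 24, and 77.5% of it was masked as repeat. Neither IWR-1 list had a peak there. On the LCR side the nearest common site was in Olfr643, 170.5 kb outside the window, and this one was called in both IWR-1 lists.

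**Figure D4:**
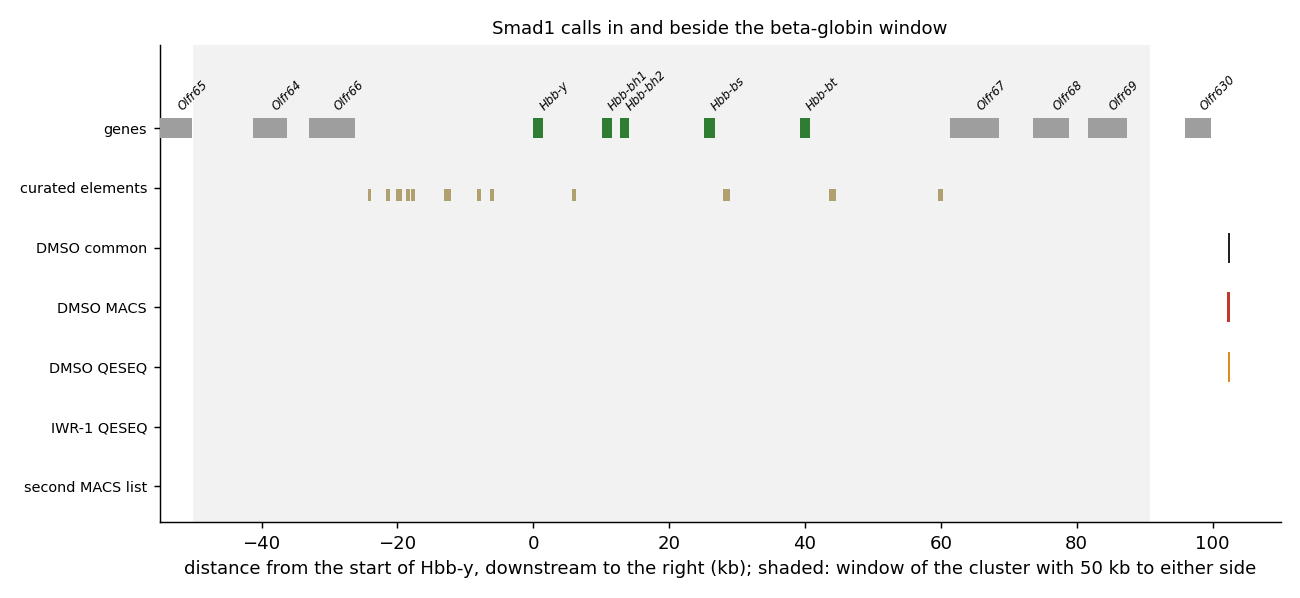
Positions in the beta-globin window as distance from the start of Hbb-y in kb, with downstream to the right, globin genes in green, olfactory receptor genes in grey, curated hypersensitive sites in tan (the LCR lies left of 0) and the calls of each list below. No call falls in the shaded window, and the 3 DMSO lists share a call 11.5 kb outside it near Olfr630.

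Gene by gene, no start or body of a globin gene was overlapped by a peak. From the start of Hba-x, the embryonic alpha-type gene, the nearest DMSO call began 10.8 kb away in the common and QESEQ lists, with 15.0% of coding genes closer to a call in the common list and 31.3% in the DMSO QESEQ list. Hba-a1 was 17.9 kb and Hba-a2 30.8 kb from a common site. In the DMSO QESEQ list they were 5.45 and 7.08 kb from a call, with 19.7% and 23.6% of coding genes closer. Thus 2 of 7 members had a call of any DMSO list within 10 kb of the start, against 32.8% of coding genes, and both rested on the single QESEQ call between them. With DMSO QESEQ alone the count was also 2 of 7 (29.9% of coding genes), and with DMSO MACS alone it was 0 of 7 (18.8%).

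The beta-type genes stood farther off. From a common site, the adult genes Hbb-bt and Hbb-bs were 63.0 and 77.1 kb away, Hbb-bh1 92.2 kb and Hbb-y 102.2 kb. All were measured to the same site near Olfr630, beside a median of 62.3 kb over coding genes. The order of these 4 distances is therefore the order of the genes along the chromosome. In the DMSO QESEQ list, 75.6% (Hbb-bt) to 85.3% (Hbb-y) of coding genes had a closer call. From an IWR-1 QESEQ peak the members were 151.2 kb (Hba-x) to 259.6 kb (Hbb-bt) away, beside a median of 39.3 kb, and from the second MACS list 151.4 to 259.8 kb, beside 91.4 kb. Within 50 kb of the gene, 3 of 7 members had a common site, against 52.1% of coding genes, the same 3 had a DMSO MACS peak (63.3%) and a DMSO QESEQ peak (76.7%), and 0 of 7 had an IWR-1 QESEQ peak (64.7%) or a peak of the second MACS list (41.5%). The members of a cluster share their neighbourhood and are not independent of each other.

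**Figure D5:**
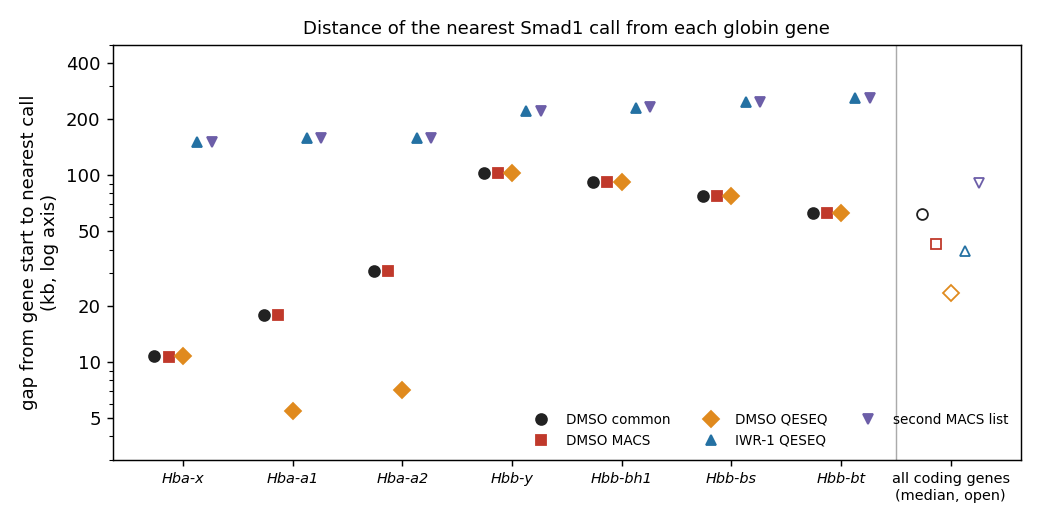
Gap in kb (log axis) from the start of each globin gene to the nearest call in each of the 5 lists, with the median over 21938 coding genes as open symbols at the right. The alpha genes lie 5.45 to 30.8 kb from a DMSO call and the beta genes 63.0 to 102.2 kb, and in the IWR-1 QESEQ list and the second MACS list all 7 genes lie more than 151 kb from a call.

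Promoters of 6 members and of Hbb-bh2, Hbq1a and Hbq1b, 250 bases before to 50 after the RefSeq start, were searched as well, and Hbb-bh1 was not matched. No list overlapped any of the 9. AGATAA was present in the promoters of Hbb-bs and Hbb-bh2, against 11.2% of 32851 promoters. A GATA element of the wider set stood in 6 of 9, against 29.8%, and a Smad element in 6 of 9, against 51.7%. The 6 with a Smad element were those of Hba-x, Hbb-y, Hbb-bs, Hbb-bt, Hbq1a and Hbq1b. Hbb-bs was the only member whose promoter held AGATAA together with the AP-1-like sequence and the Klf1 sequence CCACACCC.

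Adult globin genes occur as near-identical pairs, which limits where a short read can be placed. Of the 51-base words of Hba-a1, 5.64% occurred only once in the genome, and of those of Hba-a2 6.71%. In Hbb-bs and Hbb-bt the shares were 33.0% and 28.7%. The embryonic genes were nearly or wholly unique, with 97.5% for Hba-x and 100% for Hbb-y and Hbb-bh1. In the 1 kb upstream of the start the shares were 58.6% for Hba-a1 and 41.7% for Hba-a2, but 95.7% for Hbb-bt and 100% for the other 4 members. The regulatory sequence was mostly unique too, with 95.7% in the LCR, 98.2% in Rm and 100% in R1, R2, R3 and R4. The bodies of the 4 adult genes, where no call was listed, thus held mostly words that are not unique, and the LCR, R1 to R4, Hbb-y and Hbb-bh1, where none was listed either, held nearly only unique ones. The Rm site itself had 99.1% unique words and the second call 100%.

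Other genes of the erythroid programme were read in the same way, from a list of 23 of which 22 were found in the gene models. A common DMSO site lay within 10 kb of the gene in 5 of 22 (22.7%), against 27.3% of coding genes. The counts were 12 of 22 for DMSO MACS (34.9% of coding genes) and 12 of 22 for DMSO QESEQ (49.7%), 10 of 22 for IWR-1 QESEQ (37.6%) and 4 of 22 for the second MACS list (20.5%). The 5 genes with a common site were Myb, a regulator of erythroid progenitor growth, Zbtb7a, a repressor of foetal globin, Fech, the last enzyme of haem synthesis, Epor, the erythropoietin receptor, and Slc4a1, the red cell anion exchanger.

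Of the factors that act on the globin elements, Gata1 had a single call, a DMSO MACS peak with a score of 55.27, at percentile 20.5. Its centre lay 28.4 kb downstream of the start of Gata1, past the end of the gene. Klf1 had a single DMSO QESEQ peak 6.79 kb upstream of its start. Nfe2, the large subunit of NF-E2, had calls in DMSO MACS, DMSO QESEQ and IWR-1 QESEQ, at different positions. Bcl11a, a repressor of embryonic globin genes, had 2 DMSO MACS peaks and 2 peaks of the second MACS list and none by QESEQ. Myb had 2 common DMSO sites, 1 of them (chromosome 10, 21168503 to 21169010) 7.77 kb upstream of its start and with AGATAA and a Smad element, and no call in either IWR-1 list.

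At Epor the common site (chromosome 9, 21955304 to 21956394) had a MACS score of 125.16, at percentile 93.9, and was called again in the second MACS list but not in IWR-1 QESEQ. At Zbtb7a the site 2.08 kb past the start was called in all 5 lists. At Fech and Slc4a1 a common site had an IWR-1 QESEQ peak and none in the second MACS list. Lmo2, Tal1, Alas2, Tfrc and Epb42 had no call in any list, as the beta-type globin genes had none. The share of the list with a call was 54.5% in DMSO MACS, against 34.9% of coding genes. In the other lists it lay closer to the share of coding genes, on either side, and no difference was tested. Calls were counted over the gene with 10 kb to either side, so a longer gene covered more sequence, and length was not matched.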

How the data were processed

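The submitters' processing notes name CASAVA 1.8, Bowtie2 2.1.0 and MACS 1.0.1. By the methods of the study, single-end reads were aligned to mm10 and freed of duplicates by the authors, who called peaks with MACS (tag size 51, bandwidth 300, p cutoff 1e-05, model fold 32) and QESEQ (settings 100 and 15, p cutoff 0.05). The authors deposited 5 lists of positions and, for MACS, a score per peak, and scores were used within a list only. Starts were read as counted from 0 and are printed counted from 1.

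Overlap was counted from 1 bp. Genes were those of GENCODE M21, enhancers and hypersensitive sites those of RefSeq, and sequence and promoters those of NCBI's GRCm38.p6, the assembly behind mm10; every peak ended within its chromosome. Expected counts are window length times list density. Words of 51 bases were counted over chromosomes 1 to 19, X and Y. Element searches and overlaps were tested on simulated data with 500 cases. Input libraries were not analysed here, and whether peaks were called against them is not given in the sources used here. Named genes were the 7 members, other globin genes of both clusters, genes at or nearest to a peak in the windows, Nprl3, the segment upstream of Hbb-y, and erythroid genes with a call, of which list 1 gene is not reported by name here; genes at the nearest peaks outside were added after their values were seen, as were the comparisons by run length and by a score under 55. The members and lists were chosen with earlier results of these data known. Alternatives covered the flank, caller, score limit, IWR-1 list, overlap rule, distance and element form. Python 3.11.15, numpy 2.4.6, scipy 1.17.1, numba 0.67.0 and matplotlib 3.10.9 were used.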

Additional observations from a re-analysis of the deposited data

How the results depend on the processing

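The number of common sites in the alpha window, 1, became 0 with a flank of 10 kb and 0 with a MACS score of at least 100, since the Rm site lies 10.8 kb outside the cluster and scores 54.19. It was 2 with all DMSO QESEQ peaks, which add the call between Hbq1b and Hba-a2. The beta window, at 0, took up 1 site, the one near Olfr630, with a flank of 100 kb. Members with a DMSO call near the start, 2, became 0 within 5 kb and 0 with DMSO MACS peaks. Peaks with a GATA element went from 1 to 2 with the wider forms, and peaks with a Smad element from 0 to 1 over the whole peak. The other 17 of 25 alternatives left the counts within 1.5 times. Some of these could not move. A beta window at 0 stays at 0 with a smaller flank or a score limit, and a Smad count of 0 stays at 0 with fewer element forms. For the 2 DMSO QESEQ calls without an IWR-1 call the 5 alternatives, of list and of overlap, could not differ, because the nearest IWR-1 peak was 139.9 kb away. No paired analysis was possible because each treatment has 1 ChIP library. All IWR-1 statements rest on lists cut at a caller's threshold from 1 library, with depth per peak unknown. Those on the second MACS list also rest on its assignment by name and by elimination, against its label.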
